A study of Mus musculus with 32 samples.

Results

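The response of DBA mouse mesentery to pristane at day 18 was measured on 6 of the 32 oligonucleotide arrays of the study. Pristane (TMPD) is a mineral oil hydrocarbon, given here as 0.5 ml into the peritoneal cavity. The treated group held 3 arrays of DBA mice whose mesentery was taken 18 days after the injection, and the control group held 3 arrays of untreated DBA mice. These 6 arrays were chosen by their strain, treatment and time labels and by their title codes, which fall in the same run of numbers. The labels call the strain DBA and give no substrain, age or sex, and nothing in them shows whether each array was a different animal, so p-values reflect the array-to-array spread alone, part of which may be technical. The response was set beside 2 others that share no array with it: DBA at day 3 (3 treated arrays, 3 untreated DBA controls of another code series) and BALB/c at day 18 (4 treated arrays, 4 untreated BALB/c controls of yet another code series). The title code of DBA control replicate 3 spans more than a single number, and the titles of that BALB/c series hold the letters mix. The labels do not say whether any of these arrays was a pool.

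The mesentery is a sheet of peritoneum that ties the gut to the body wall, holds fat, vessels, nerves and lymph nodes, and is covered by mesothelium. Pristane is not broken down quickly, and oil droplets taken up by neutrophils and macrophages seed long-lasting granulomas on peritoneal surfaces. In BALB/c mice these granulomas are where plasmacytomas, tumours of plasma cells, arise under the influence of interleukin-6, whereas DBA mice are largely resistant, and pristane is also used to set off a lupus-like disease in which type I interferon is made by monocytes through Toll-like receptor 7. Stat2 and Irf9 are transcription factors of the type I interferon response and act at a response element with a repeated GAAA core in front of their target genes.

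Each value is a probe set signal, not yet on a log scale, with a 2% trimmed mean of 500 on every array. A gene was represented by its brightest probe set with exactly 1 symbol, and 13017 genes with a signal above 103.7 on at least 3 arrays were tested. Changes are differences of mean log2(signal + 24.9) between treated and control arrays and carry their SE (n = 3 arrays each). The words rose, fell and called stand for a Benjamini-Hochberg adjusted p under 0.05 in limma over all genes tested. Array medians ran from 117.2 to 122.8 in treated and from 116.9 to 120.3 in control arrays, and arrays of a group correlated at 0.954 to 0.982 (treated) and 0.976 to 0.982 (control). Treated replicate 2 stood apart from the other treated arrays in neutrophil, mast cell, cell cycle and fat genes, and the results for those lists are also given without it. Xist, the transcript of the inactive X chromosome, was high on 1 of 3 treated and 1 of 3 control arrays, replicate 3 of each group. Kdm5d, a gene of the Y chromosome, had 346.8, 367.9 and 14.5 on treated arrays, against 327.3, 295.4 and 12.2 on control arrays. By these 2 transcripts both groups mixed the sexes. The label mesentery was borne out by fat and mesothelial markers on the control arrays, with signals of 23745, 24694 and 23470.3 for Adipoq (adiponectin) and 7254, 8101 and 6748 for Upk3b (uroplakin 3b).

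At day 18, 2917 genes rose and 3258 fell, which is 22.4% and 25% of the genes tested and 47.4% in both directions together. At least 2-fold, 1313 rose (10.1%) and 1137 fell (8.73%). Treated and control arrays did not overlap in 2811 of the called increases (21.6% of the genes tested) and 3157 of the called decreases (24.3%). The median change of all genes was -0.04. The 15 largest increases among genes whose treated arrays all lay above the controls were Acod1, Cxcl2, Cxcl5, Clec4e, Ccl3, Trem2, Arg1, Chil3, Hdc, Gpnmb, Mmp12, Ccl12, Olr1, Chil1 and Ms4a4c. For 10 of these 15 the control mean was below 103.7, so the size of their change depends on the offset added before the log.

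Acod1, the mitochondrial enzyme that makes itaconate in activated macrophages, had signals of 3870.3, 6298 and 5755 on the treated arrays, against 25.5, 4.4 and 3.4 on the control arrays. It was near the bottom of the scale on every control array and bright on every treated one, a log2 change of 7.23 ± 0.35 (adjusted p = 9.49e-14). Cxcl5, a chemokine for neutrophils, had 1313, 7179 and 2933 on treated arrays, against 59.4, 4.2 and 42.9 on control arrays, 5.80 ± 0.47 on the log2 scale. The groups did not overlap, but treated replicate 2 was more than 2 times either other treated array. Arg1, the arginase of alternatively activated macrophages, reached 16139, 15778 and 17677 on treated arrays, against 482, 228 and 306 on control arrays, and its change was 5.57 ± 0.64. The treated values of Arg1 lay close together and far above every control. Trem2, a lipid-sensing receptor of macrophages, had 4522, 2562 and 4978 on treated arrays, against 114, 68.6 and 17.3 on control arrays, a change of 5.57 ± 0.50, again with no overlap. Gpnmb, a glycoprotein of lipid-laden macrophages, had 10395, 4465 and 13663 on treated arrays, against 275, 175 and 242 on control arrays, a change of 5.10 ± 0.38. All 15 leading increases also rose in DBA at day 3 and in BALB/c at day 18. Among all genes 16.4% and 21.7% rose there, and among all DBA day 18 increases 58.1% and 74.3% did.

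The 12 largest decreases, chosen in the same way, were Cidea, Lep, Npr3, Cox8b, Mtarc1, Sncg, Acaa1b, Aldh1a7, Reep6, Ankef1, Myl1 and Orm1. Cidea, a protein of lipid droplets, had 1555, 83.2 and 550.0 on treated arrays, against 6390.3, 6797 and 6616 on control arrays, a change of -3.84 ± 0.62 (adjusted p = 1.31e-05). Lep, which encodes the fat hormone leptin, had 503, 58.4 and 188 on treated arrays, against 2749, 3777 and 2037 on control arrays, a change of -3.73 ± 0.73. Both genes were lowest on treated replicate 2 and highest, among treated arrays, on replicate 1. Replicate 1 had the highest treated value of all 12 decreases and replicate 2 the lowest of 11. Of the 12, 6 also fell in DBA at day 3 and 10 in BALB/c at day 18. Among all genes 13.4% and 22.2% fell there, and among all DBA day 18 decreases 45.2% and 65.2% did. Npr3, the clearance receptor for natriuretic peptides, and Myl1, a myosin light chain of fast skeletal muscle, changed by -3.66 ± 0.65 and -3.19 ± 0.50.

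**Figure D1:**
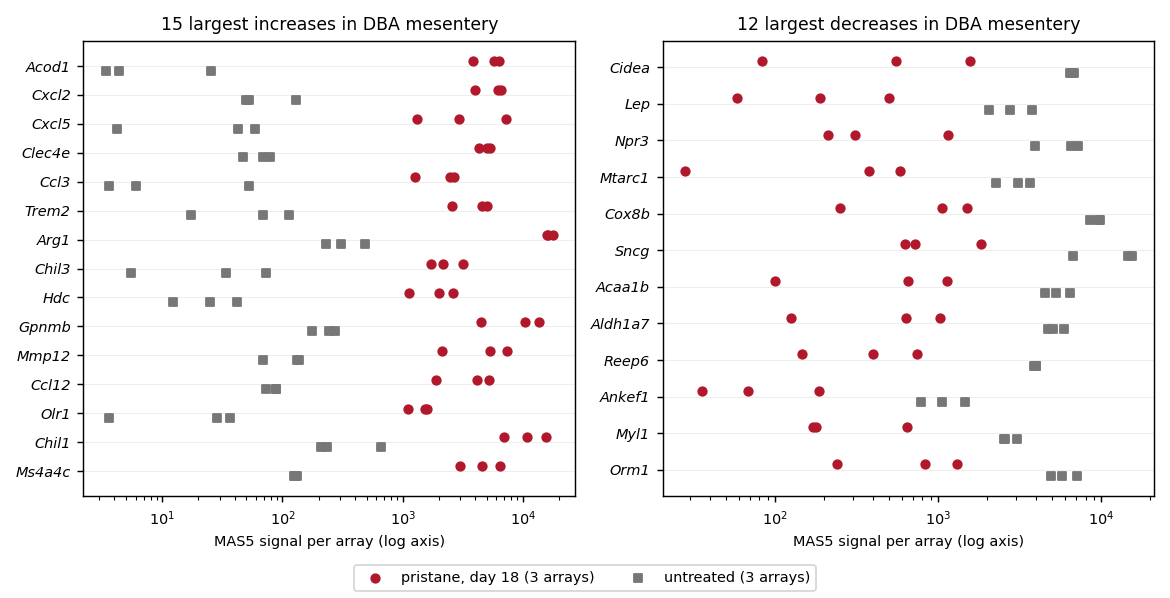
Signal of each DBA array on a log axis for the 15 largest increases (left panel) and the 12 largest decreases (right panel), with 3 day 18 arrays as circles and 3 untreated arrays as squares. In every gene shown the 2 groups are apart, and among the decreases the treated arrays spread more widely than the untreated ones, as in Cidea, where they run from 83.2 to 1555.

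Genes induced by type I interferon rose almost throughout. Of 31 interferon-stimulated genes tested, 30 rose and 0 fell, with a median log2 change of 2.86, against -0.04 over all genes, of which 22.4% rose. All 31 had every treated array above every control array, against 28.6% of all genes. Irf7, the transcription factor that amplifies interferon production, had 7583, 4960.1 and 9271 on treated arrays, against 433, 316 and 353 on control arrays. The lowest treated array was over 10 times the highest control, and the change was 4.18 ± 0.44 (adjusted p = 2.43e-08). Ifit1, which binds viral RNA that lacks a host cap, had 5269, 3917 and 5807 on treated arrays, against 272, 179 and 247 on control arrays, a change of 4.28 ± 0.30. Usp18, a protease that removes the Isg15 modifier and damps interferon signalling, had 4135, 3236 and 4840.2 on treated arrays, against 243, 173 and 219 on control arrays, a change of 4.10 ± 0.30. In these 3 genes the groups were far apart and the treated arrays kept the same order, replicate 3 highest and replicate 2 lowest. The largest changes in the list were those of Oas3 (4.87 ± 0.39), an oligoadenylate synthetase, and Zbp1 (4.65 ± 0.27), a sensor of Z-form nucleic acid. Mx1, an antiviral GTPase that is truncated in most inbred strains, changed by 3.70 ± 0.39, and Stat2, a part of the factor that reads the interferon signal, by 2.84 ± 0.20. Ifi27l2a alone did not pass, at 0.28 ± 0.17 (adjusted p = 0.194).

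The promoters of some of these genes are printed to show where the letters of the interferon response element lie in them. They are RefSeq sequences of the mouse assembly GRCm38.p6, 250 bases before and 50 after the annotated start, read 5′ to 3′ on the gene's strand, and capitals mark the motif searched, GAAA followed by any 2 bases and GAAA again, on either strand. Ifit1 (chr19:34640639-34640938, plus strand) and Ifit3 (chr19:34583279-34583578, plus strand) each hold 2 matches, Oas3 (chr5:120777610-120777909, minus strand) and Rsad2 (chr12:26456403-26456702, minus strand) hold 1, and Irf7 (chr7:141266375-141266674, minus strand) holds none and is shown for contrast.
Ifit1: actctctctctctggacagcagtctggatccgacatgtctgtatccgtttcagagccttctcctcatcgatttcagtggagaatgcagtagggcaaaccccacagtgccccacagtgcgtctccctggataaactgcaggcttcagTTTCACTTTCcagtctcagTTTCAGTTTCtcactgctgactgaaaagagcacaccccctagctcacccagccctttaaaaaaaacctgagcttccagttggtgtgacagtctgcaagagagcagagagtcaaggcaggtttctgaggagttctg
Ifit3: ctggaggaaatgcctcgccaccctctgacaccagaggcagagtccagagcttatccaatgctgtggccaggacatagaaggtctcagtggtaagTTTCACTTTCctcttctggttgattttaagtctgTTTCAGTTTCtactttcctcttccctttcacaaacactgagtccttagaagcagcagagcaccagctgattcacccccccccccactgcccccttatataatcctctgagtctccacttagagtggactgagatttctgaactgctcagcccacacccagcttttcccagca
Oas3: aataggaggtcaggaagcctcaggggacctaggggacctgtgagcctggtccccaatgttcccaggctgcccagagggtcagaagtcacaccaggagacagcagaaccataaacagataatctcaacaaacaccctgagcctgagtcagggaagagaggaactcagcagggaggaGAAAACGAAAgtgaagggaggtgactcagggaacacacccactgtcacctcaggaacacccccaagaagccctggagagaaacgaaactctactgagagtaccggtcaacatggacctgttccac
Rsad2: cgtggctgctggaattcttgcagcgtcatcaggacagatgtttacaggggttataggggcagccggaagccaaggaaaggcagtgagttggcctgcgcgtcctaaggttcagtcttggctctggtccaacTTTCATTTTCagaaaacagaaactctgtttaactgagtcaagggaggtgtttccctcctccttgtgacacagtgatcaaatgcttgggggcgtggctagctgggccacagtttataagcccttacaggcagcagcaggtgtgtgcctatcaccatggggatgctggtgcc
Irf7: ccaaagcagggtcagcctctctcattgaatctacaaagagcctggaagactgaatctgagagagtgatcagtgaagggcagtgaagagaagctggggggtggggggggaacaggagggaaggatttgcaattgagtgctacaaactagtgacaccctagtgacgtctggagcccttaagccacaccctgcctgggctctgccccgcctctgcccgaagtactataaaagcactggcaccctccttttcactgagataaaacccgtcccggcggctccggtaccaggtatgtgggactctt
Counted from the start, the matches begin at -104 and -85 in Ifit1, at -156 and -122 in Ifit3, at -75 in Oas3 and at -120 in Rsad2. Of the 31 interferon-stimulated genes, 21 were in the RefSeq table, and 11 of them held the motif, in 12 of 26 promoters (46.2%). Over all 32851 promoters it occurred in 1131 (3.44%), and over those of tested genes in 3.05%. Of the interferon-gamma and GTPase promoters 8 of 14 (57.1%) held it, and of the acute cytokine promoters 0 of 19. A match is a description of the letters and neither a binding site nor a cause of a change, and Irf7 changed as much as Ifit1 without one in this window. The shorter palindrome TTCNNNGAA, searched in the same way, stood in 6 of the 26 interferon-stimulated promoters (23.1%) and 8.3% of all, and in 1 promoter, that of Bst2, it overlapped a match of the longer motif.

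The Ifi200 family, whose proteins carry a pyrin domain, a DNA-binding HIN domain or both and sense DNA or restrain growth, rose in full, 5 of 5 tested, with a median of 3.06. Ifi204 had 586, 474 and 971 on treated arrays, against 46.6, 51.6 and 27.3 on control arrays, a change of 3.35 ± 0.28. Ifi202b, which lacks the pyrin domain, had 11559, 12179 and 14206 on treated arrays, against 1447, 1290.1 and 1130.2 on control arrays, a change of 3.27 ± 0.25. The groups did not overlap in either gene. Mndal, a growth-restraining member of the family, was dim, with 127, 159.5 and 134 on treated arrays, against 62.6, 47.7 and 24.9 on control arrays. Its treated arrays lay within a narrow range above the controls, and its change was 1.27 ± 0.43 (adjusted p = 0.0168), a call that was lost without treated replicate 2 (adjusted p = 0.0555), without control replicate 3 (adjusted p = 0.0843) and with the mean over its probe sets (adjusted p = 0.266). Members of this family are near-identical in places and lie side by side, so probe sets may read more than 1 of them.

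Genes listed under the interferon-gamma response and its GTPases followed, with 14 of 15 up and a median of 1.88. They include Cxcl10 (3.19 ± 0.39) and Cxcl11 (2.62 ± 0.54), chemokines for T cells, and Irgm1 (2.43 ± 0.21), a GTPase that acts on phagosomes. Cxcl9, a chemokine of the same group, was at 0.64 ± 0.49 and did not pass. The part of each type of interferon in this list was not tested. Of 10 genes of MHC class I presentation 8 rose (median 1.19), led by the peptide transporter Tap1 (2.41 ± 0.23) and the immunoproteasome subunit Psmb8 (1.91 ± 0.30). Of 9 genes of MHC class II presentation 8 rose (median 0.83), among them H2-Ab1 (1.34 ± 0.28), a class II chain, and Cd74 (0.73 ± 0.19), the invariant chain. The class II list was lower on treated replicate 2, with a list median of 0.25 above the control mean there, against 1.26 on replicate 1 and 0.98 on replicate 3.

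**Figure D2:**
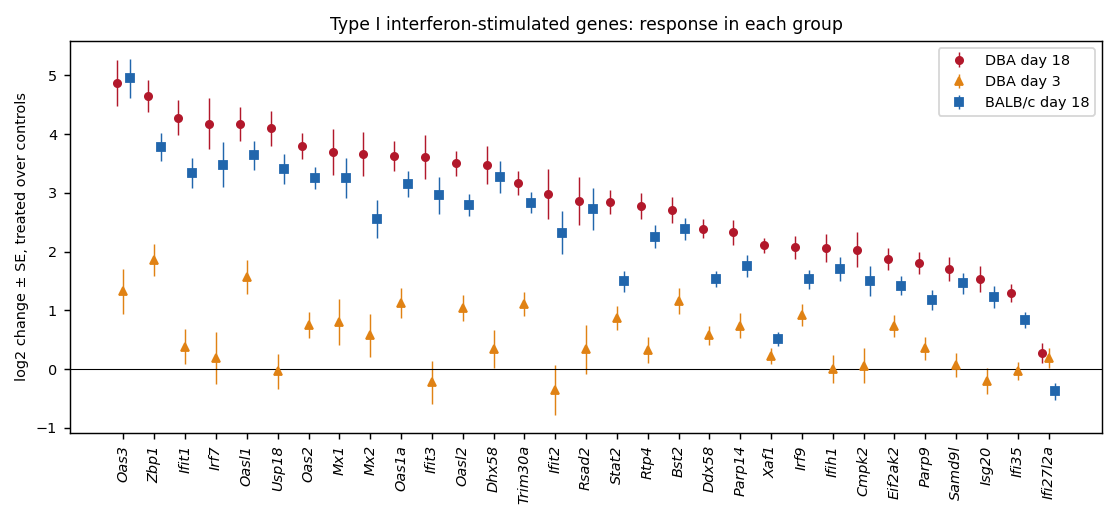
Log2 change ± SE of the 31 interferon-stimulated genes in DBA at day 18 (circles, n = 3 treated and 3 control arrays), DBA at day 3 (triangles, 3 and 3) and BALB/c at day 18 (squares, 4 and 4), each over its own controls. The circles run from 4.87 for Oas3 to 0.28 for Ifi27l2a, and in all genes but the last the triangles lie well below them.

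Cytokines and chemokines of acute inflammation were still high at day 18, when 21 of 25 rose and 0 fell, with a median of 3.02. Il6, the growth factor of plasmacytomas, had 371, 903 and 961 on treated arrays, against 17.7, 1.7 and 27.7 on control arrays, a change of 4.19 ± 0.39 (adjusted p = 3.21e-09). Every control array of Il6 was below 30 and every treated one above 370. Il1b, the inflammasome cytokine, changed by 4.12 ± 0.38, and Tnf by 2.70 ± 0.45. The monocyte chemokines Ccl2, Ccl7 and Ccl8 changed by 4.05 ± 0.55, 4.43 ± 0.48 and 3.91 ± 0.24, and Cxcl1, a neutrophil chemokine, by 3.52 ± 0.47. The 4 that did not pass were Lif, Ptgs2, Tslp and Ccl11, between -0.30 and 0.41. The promoters of this list held TATAAA in 10 of 19 (52.6%), against 13.6% of all promoters.

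Downstream of interleukin-6, 8 of 12 genes of its pathway rose with a median of 1.16. Among them were Socs3 (2.33 ± 0.32), its feedback inhibitor, and Stat3 (1.05 ± 0.11), its transcription factor, while the receptor subunits Il6ra and Il6st were at 0.48 and 0.40 and did not pass. Of 18 acute-phase and complement genes 13 rose and 2 fell (median 1.78). Saa1 and Saa3, serum amyloid proteins, changed by 2.80 ± 0.36 and 2.22 ± 0.31, the complement factor Cfb by 3.09 ± 0.32 and the anaphylatoxin receptor C3ar1 by 3.37 ± 0.21. The members that fell were the orosomucoids Orm1 (-3.14 ± 0.41) and Orm2 (-1.75 ± 0.41), plasma carrier proteins that fat also makes. Orm1 had 1296, 241 and 826 on treated arrays, against 5764, 7130.3 and 4941 on control arrays, without overlap.

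Of 14 Toll-like receptors and their adaptors 12 rose and 1 fell (median 1.49). Tlr7, the endosomal receptor for single-stranded RNA, had 854, 454 and 873 on treated arrays, against 73.0, 91.2 and 76.6 on control arrays, a change of 2.78 ± 0.26. Its groups did not overlap. Tlr13, a sensor of bacterial ribosomal RNA, changed by 3.97 ± 0.24. Tlr5, the flagellin receptor, fell by 0.58 on the log2 scale, a call that was lost without control replicate 1. Lymphoid-organizing chemokines and receptors rose in 7 of 9 (median 0.88), led by Cxcr4 (3.09 ± 0.23) and its ligand Cxcl12 (2.84 ± 0.21), and by Cxcl13 (2.05 ± 0.37), which draws B cells into follicles. The other probe set of Cxcl12 changed by only 0.22. Over the alternatives with 1 value per gene the change of Cxcl12 was at least 1.53, with the call kept. These do not include its probe sets tested singly, so the size of its rise depends on the probe set.

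The inflammatory cell lists rose together. Neutrophil genes rose in 18 of 18 tested (median 3.17) and monocyte and macrophage genes in 23 of 24 (median 2.83). In bulk tissue, more cells of a type and more RNA per cell cannot be told apart, and likewise fewer cells and less RNA. The summed signal of the neutrophil list ran from 39119 to 173085 on treated arrays, against 3302 to 12158 on control arrays, and that of the macrophage list from 175162 to 219670, against 54715 to 65561. On no array was a member of a cell type list at 0.

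Within the neutrophil list the arrays differed widely. Ngp, a secondary granule protein made in maturing neutrophils, had 1059.6, 21490.2 and 1695 on treated arrays, against 831, 109.7 and 46.5 on control arrays. Elane, the elastase of primary granules, had 106, 6959 and 163 on treated arrays, against 134.8, 13.8 and 28.9 on control arrays, and Mpo, the myeloperoxidase of the same granules, had 88.6, 10133 and 301, against 207, 83.5 and 57.6. Treated replicate 2 was far above all others in these granule genes, and the groups of Mpo and Elane overlapped. Without that array Mpo changed by 0.59 (adjusted p = 0.49), Elane by 1.18 (adjusted p = 0.113) and Ltf, lactoferrin, by 1.45 (adjusted p = 0.109), and 14 of 18 neutrophil genes rose with a median of 2.66. In a fit on the 6 arrays of the response alone, the calls of Mpo, Elane and Ltf were lost too (adjusted p of 0.187, 0.11 and 0.0713). S100a8, a calprotectin subunit of mature neutrophils, had 8718, 27983 and 14986 on treated arrays, against 3889, 1012 and 702 on control arrays, and its partner S100a9 had 9374, 27524 and 15899, against 3845, 1421 and 968. The groups did not overlap in either gene, with replicate 2 again highest, and the changes were 3.43 ± 0.48 and 3.18 ± 0.50.

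Among macrophage genes, Fcgr1, the high-affinity receptor for IgG, changed by 4.36 ± 0.39, Msr1, a scavenger receptor, by 4.09 ± 0.28, and Adgre1, which encodes F4/80, by 1.54 ± 0.22. Csf1r and Lyz2, which resident macrophages also express, changed by 0.76 ± 0.16 and 0.69 ± 0.15. Phagocyte oxidase subunits rose in 5 of 5 (median 2.72), among them Ncf1 (3.23 ± 0.24) and Cybb (2.68 ± 0.29). Of 17 genes of alternatively activated and resident macrophages 13 rose and 2 fell (median 1.17). Mrc1, the mannose receptor, changed by 1.41 ± 0.19. Retnla, a secreted product of alternatively activated cells, fell by 1.28 on the log2 scale, with 12147, 2228 and 8962 on treated arrays, against 16318, 16929 and 12789 on control arrays. Its fall was -0.54 without treated replicate 2 (adjusted p = 0.293), and its call was also lost without control replicate 1 or 2. In a fit on the 6 arrays of the response alone, the call of Retnla was lost too (adjusted p = 0.0872). Mgl2, a galactose-binding lectin, fell by 1.21 on the log2 scale.

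The lipid-laden macrophage and lysosome list was mixed, with 11 of 20 up, 3 down and a median of 0.77. Besides Trem2, Gpnmb and Mmp12 it held increases of Itgax (3.65 ± 0.40), the integrin CD11c, and Lgals3 (2.06 ± 0.21), galectin 3. The members that fell were Lpl (-0.92 ± 0.32), Acp5 (-1.02 ± 0.29) and Cd36 (-1.23 ± 0.22); Lpl and Cd36 are also abundant in fat cells. Without treated replicate 2 Lpl was at -0.58 (adjusted p = 0.171) and Acp5 at -0.71 (adjusted p = 0.064), which left 1 member lower. Dendritic cell genes rose in 8 of 10 (median 0.88), among them Fscn1 (1.40 ± 0.25), a bundler of actin in mature cells, and 5 of 10 without treated replicate 2 or without control replicate 2 or 3. The 1 eosinophil gene tested, Siglecf, rose by 0.82, a call lost without treated replicate 1 or control replicate 1. It was dim, at 35.8 to 62.2 on treated and 2.4 to 31.5 on control arrays, all under 103.7, where signals have no reliable order.

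Mast cell genes rose in 8 of 9 with a median of 2.45. Hdc, the enzyme that makes histamine, had 1120.0, 2598 and 1987 on treated arrays, against 42.0, 12.4 and 25.1 on control arrays, a change of 5.19 ± 0.39. Cma1, the chymase, had 883, 7298 and 3397, against 498, 410.4 and 587, and Tpsab1, a tryptase, had 171, 2170.1 and 777, against 56.1, 76.6 and 40.3, changes of 2.45 ± 0.39 and 3.11 ± 0.45. The treated arrays did not overlap with the controls in these 3 genes, but ranged over more than 8 times in Cma1 and 12 times in Tpsab1, with replicate 2 highest. The list lay 0.81, 3.82 and 2.72 above the control mean on treated replicates 1 to 3, and without replicate 2 it held 7 increases and a median of 1.77. The summed mast cell signal ran from 5130 to 39435 on treated arrays, against 2963 to 4054 on control arrays. Kit, the receptor for stem cell factor, was at -0.92 ± 0.43 and did not pass.

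**Figure D3:**
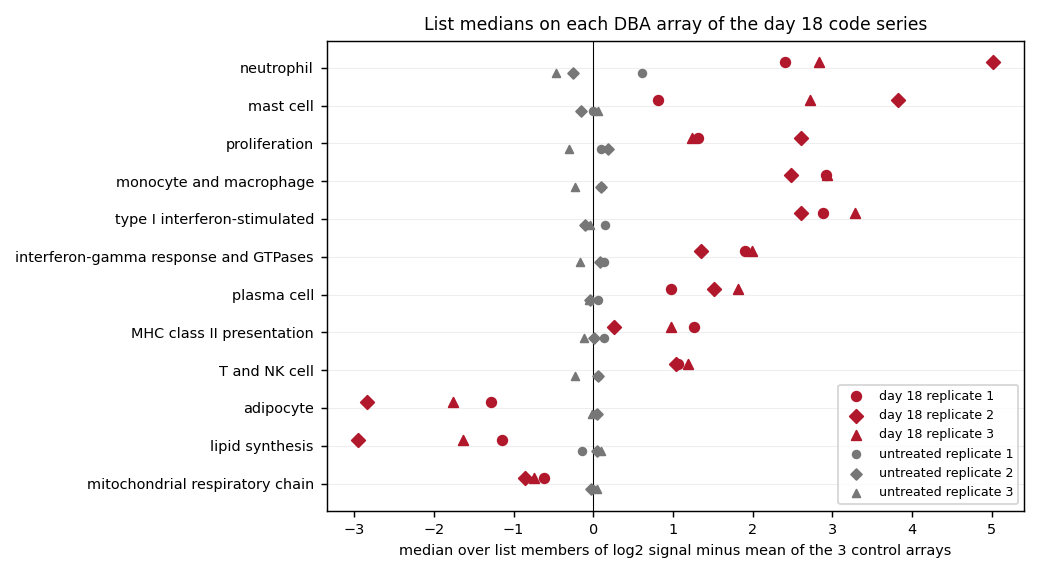
Median over the members of 12 lists of the log2 signal on each DBA array minus the mean of the 3 untreated arrays, with a marker shape for each replicate, day 18 in red and untreated in grey. Day 18 replicate 2 (diamonds) is the most extreme array in the neutrophil, mast cell, proliferation, adipocyte and lipid synthesis lists, while the 3 arrays are close in the interferon-stimulated list, at 2.88, 2.60 and 3.29.

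T and NK cell genes rose in 13 of 20 and fell in 1 (median 1.02). Il7r, the interleukin-7 receptor chain, had 2160.3, 2118 and 3405 on treated arrays, against 217, 231 and 183 on control arrays, a change of 3.43 ± 0.28. Cd4 changed by 1.67 ± 0.30 and Cd3e, a chain of the T cell receptor complex, by 1.42 ± 0.28, without overlap of the groups. Cd8a fell by 0.69 on the log2 scale while Cd8b1, its partner chain, rose by 1.67. The mean over the probe sets of Cd8a gave 0.38 (adjusted p = 0.147), and its fall was also lost without treated replicate 2 or control replicate 3. Of 11 B cell genes 1 rose, Ly6d by 0.91 (a call lost without treated replicate 2 or 3 or control replicate 2), and 0 fell (median -0.01), and Cd79a, a chain of the B cell receptor, was at -0.05 ± 0.29.

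Plasma cell genes rose in 11 of 16 (median 1.68). Jchain, the joining chain of secreted IgM and IgA, had 11745, 13759 and 14977 on treated arrays, against 4427, 2710.4 and 2893 on control arrays, a change of 2.03 ± 0.34. Ighm, the IgM heavy chain, changed by 2.21 ± 0.32, and Mzb1, a chaperone of antibody assembly, by 1.97 ± 0.29. Prdm1, the factor that drives plasma cell fate, changed by 0.70 ± 0.15, whereas Xbp1 (0.55 ± 0.29) and Irf4 (0.37 ± 0.40), factors of the same programme, did not pass. The summed plasma cell signal ran from 72859 to 103746 on treated arrays, against 28182 to 38808 on control arrays, and the summed B cell signal from 3279 to 4223, against 3226 to 3644. Genes of the endoplasmic reticulum and unfolded protein response rose in 15 of 22 (median 0.71), among them Sdf2l1 (2.08 ± 0.56), Creld2 (1.58 ± 0.50) and Hspa5 (1.11 ± 0.37), the chaperone BiP. The call of Creld2 was lost without treated replicate 2 and that of Hspa5 without treated replicate 3. These genes also serve antibody secretion, and the part of plasma cells in them was not tested.

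Of 6 genes listed as plasmacytoma candidates 4 rose and 2 fell (median 1.21), against 22.4% and 25% of all genes. Besides Ifi202b and Mndal, Tnfrsf1b, a receptor for tumour necrosis factor, changed by 1.97 ± 0.24 and Myc, the oncogene that plasmacytomas rearrange, by 1.15 ± 0.19. Mtor, the growth kinase, changed by -0.76 ± 0.12 and Rb1, the retinoblastoma protein, by -0.84 ± 0.19. Myc had 1004, 1430.2 and 1209 on treated arrays, against 478, 648 and 470.3 on control arrays, and Mtor had 1282, 983 and 1134, against 1883, 1834 and 2063. The groups did not overlap in either gene.

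Proliferation genes rose in 28 of 30 (median 1.69). Mki67, a protein of cycling nuclei, had 967, 3797 and 899.5 on treated arrays, against 254, 383 and 162 on control arrays, a change of 2.45 ± 0.45. Cdk1, the mitotic kinase, changed by 2.13 and Ccnb2, its cyclin partner, by 2.24. The list lay 1.31, 2.60 and 1.24 above the control mean on treated replicates 1 to 3, and without replicate 2 it held 25 increases and a median of 1.18. Promoters of these genes share the letters CCAAT, read by the factor NF-Y, in 23 of 25 promoters (92%), against 37.4% of all promoters. Those of Cdk1 (chr10:69352863-69353162, minus strand) and Ccnb2 (chr9:70421505-70421804, minus strand) are printed because each holds 3 matches, in capitals, on either strand.
Cdk1: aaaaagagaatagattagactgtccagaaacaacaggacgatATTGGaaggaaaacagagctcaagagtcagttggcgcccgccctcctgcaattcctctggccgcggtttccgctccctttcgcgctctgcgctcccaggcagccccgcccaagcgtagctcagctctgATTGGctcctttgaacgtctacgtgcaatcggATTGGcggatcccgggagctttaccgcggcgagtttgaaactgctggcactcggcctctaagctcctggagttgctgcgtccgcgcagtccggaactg
Ccnb2: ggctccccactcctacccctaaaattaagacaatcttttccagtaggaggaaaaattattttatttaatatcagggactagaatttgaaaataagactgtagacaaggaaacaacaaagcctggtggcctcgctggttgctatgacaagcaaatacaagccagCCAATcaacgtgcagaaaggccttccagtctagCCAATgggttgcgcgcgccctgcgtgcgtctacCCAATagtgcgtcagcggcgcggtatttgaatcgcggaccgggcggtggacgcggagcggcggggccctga
Counted from the start, the matches begin at -208, -80 and -48 in Cdk1 and at -87, -54 and -21 in Ccnb2. Again a match describes the letters only.

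Genes of fat cells fell almost throughout. Of 18 adipocyte genes 16 fell and 0 rose, with a median of -1.96, against -0.04 over all genes, of which 25% fell. Aqp7, the glycerol channel, had 579, 83.5 and 184 on treated arrays, against 2432, 2226 and 1401 on control arrays, a change of -3.06 ± 0.54. Lipe, the hormone-sensitive lipase, changed by -2.54 ± 0.39 and Pparg, the master regulator of fat cell fate, by -2.05 ± 0.37. Adipoq stayed bright, with 17004, 7331 and 14249 on treated arrays, against 23745, 24694 and 23470.3 on control arrays. Its groups did not overlap, and its change was -0.98 ± 0.29, or -0.62 without treated replicate 2 (adjusted p = 0.0875). Car3 and Fabp4, a carbonic anhydrase and a fatty acid carrier, were at -0.53 ± 0.24 and -0.69 ± 0.32 and did not pass; the mean over the probe sets of Fabp4 did, at -1.68 (adjusted p = 3.31e-05). The summed adipocyte signal ran from 63192 to 141502 on treated arrays, against 236360 to 249668 on control arrays.

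Lipid synthesis genes fell in 22 of 23 (median -1.79). Acacb, an acetyl-CoA carboxylase, changed by -2.92 ± 0.47, Pnpla3, a lipid droplet acyltransferase and lipase, by -3.01 ± 0.53, Pck1, which feeds glycerol synthesis in fat, by -2.92 ± 0.48, and Fasn, fatty acid synthase, by -1.41 ± 0.36. Scd1, the stearoyl-CoA desaturase, was at -0.55 ± 0.35 and did not pass, but did with the mean over its probe sets, at -1.41 (adjusted p = 0.000601). Of 12 thermogenic fat genes 10 fell and 1 rose (median -1.89). Cox8b, a cytochrome oxidase subunit of brown fat and muscle, had 1494, 251 and 1061 on treated arrays, against 8469.5, 9785 and 9682 on control arrays. Ucp1, the uncoupling protein of brown fat, was dim, with 8.5, 5.4 and 7.3 on treated arrays, against 73.4, 159.9 and 137 on control arrays. The groups did not overlap in either gene, and the changes were -3.60 ± 0.48 and -2.17 ± 0.51. Fabp3, a fatty acid carrier of muscle and brown fat, rose by 0.87, a call lost without treated replicate 1 or 3 or control replicate 1.

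All 30 mitochondrial respiratory chain genes fell, with a median of -0.73 and a narrow range of -1.33 (Ndufs1, a core subunit of complex I) to -0.38 (Ndufa2, an accessory one). Leaving out each array gave 27 to 30 called members, with 27 without treated replicate 2, and quantile normalization and median centring gave 29 each. Ndufa2 lost its call under 7 alternatives, among them leaving out treated replicate 2 or 3 or control replicate 1 or 3 (highest adjusted p = 0.132). On every one of them each treated array lay below each control array, against 33% of all genes. Ndufs1 had 2578, 1775 and 2285 on treated arrays, against 5606, 5114 and 5918 on control arrays. The fat lists differed between treated arrays in the same order as each other, with the adipocyte list at -1.28, -2.84 and -1.76 relative to the control mean on replicates 1 to 3 and the lipid synthesis list at -1.15, -2.95 and -1.63. Without replicate 2, 13 adipocyte genes fell with a median of -1.46 and 19 lipid synthesis genes with a median of -1.39. The rise of leukocyte markers and the fall of fat markers lie on the same arrays, and the part of tissue composition in each list was not tested.

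**Figure D4:**
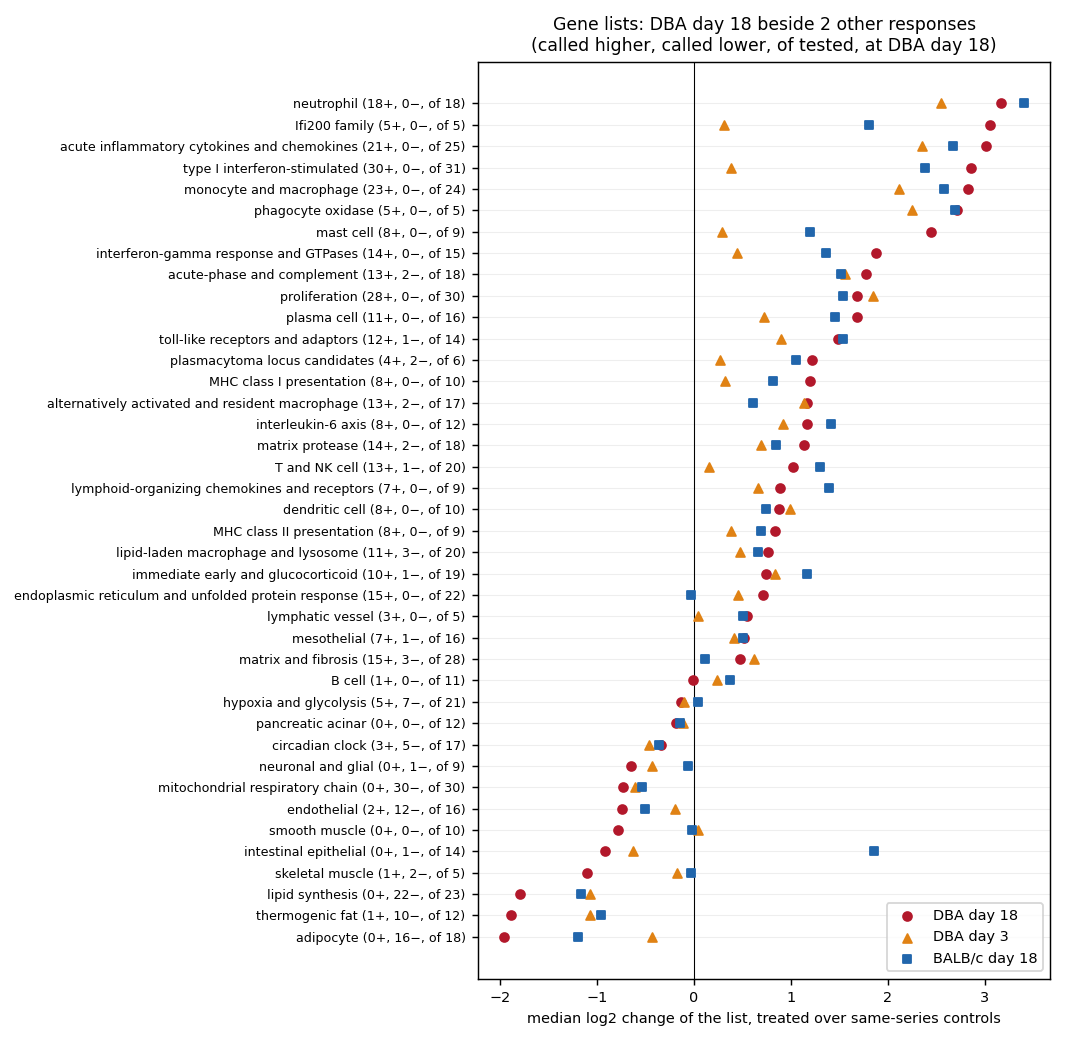
Median log2 change of the 40 lists with at least 5 tested members in DBA at day 18 (circles), DBA at day 3 (triangles) and BALB/c at day 18 (squares), ordered by the first, with the numbers called higher and lower at DBA day 18 beside each name. The interferon-stimulated and Ifi200 lists have day 3 medians of 0.38 and 0.31 against day 18 medians of 2.86 and 3.06, and the adipocyte list is lowest, at -1.96.

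Matrix and fibrosis genes moved less, with 15 of 28 up and 3 down (median 0.47). Timp1, an inhibitor of metalloproteinases, had 7095, 13728 and 11594 on treated arrays, against 639.8, 468 and 314 on control arrays, a change of 4.44 ± 0.42. Col1a1, the main fibrillar collagen, changed by 1.74 ± 0.29 and Lox, which cross-links collagen, by 1.39 ± 0.38, which was 0.85 without treated replicate 2 (adjusted p = 0.0665). Acta2, the actin of myofibroblasts and smooth muscle, was at -0.42 ± 0.19 and did not pass, and Postn, periostin, fell by 0.94 on the log2 scale. Matrix proteases and inhibitors rose in 14 of 18 and fell in 2 (median 1.13). Timp4, an inhibitor made in fat, fell by 2.90 on the log2 scale, and the gelatinase Mmp9 changed by 1.40 ± 0.37, or 0.78 without treated replicate 2 (adjusted p = 0.0507). In a fit on the 6 arrays of the response alone, the call of Mmp9 was lost too (adjusted p = 0.0517).

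Endothelial genes fell in 12 of 16 and rose in 2 (median -0.74). The 2 that rose were the adhesion molecules Vcam1 (2.62 ± 0.24) and Icam1 (2.16 ± 0.19), which hold leukocytes to activated vessels. Cldn5, a tight junction protein, had 1694, 743 and 809 on treated arrays, against 4396, 3932 and 2916 on control arrays, a change of -1.85 ± 0.25. Gpihbp1, which carries lipoprotein lipase to the capillary wall, changed by -1.96 ± 0.25 and Pecam1 by -0.87 ± 0.28, a call lost without treated replicate 3 or control replicate 1. Of 5 lymphatic vessel genes 3 rose (median 0.54). Mesothelial genes rose in 7 of 16 and fell in 1 (median 0.52). Dmkn, an epithelial secreted protein, changed by 2.66 ± 0.32 and Wt1, a transcription factor of mesothelium, by 1.20 ± 0.21, while Upk3b, the member that fell, changed by -0.56 ± 0.19, a call lost when either treated replicate 2 or control replicate 2 was left out (adjusted p of 0.133 and 0.0627).

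Of the lists for neighbouring tissues, those of pancreas and smooth muscle had no called member and the others at most 3. For the pancreatic acinar list, limma called 0 of 12 (median -0.19; 0 at an unadjusted p under 0.05, which 53.5% of all genes reached, and 0 by an ordinary linear model), and its summed signal was 1430 to 1850 on treated arrays, against 1755 to 2734 on control arrays. For smooth muscle limma called 0 of 10 (median -0.78, with 3 at an unadjusted p under 0.05, and 0 by an ordinary linear model). All 10 nonetheless had every treated array below every control, against 33% of all genes. The intestinal list fell in 1 of 14 (Lgals4, a gut lectin, a call lost without control replicate 1 or treated replicate 2 or 3) with a median of -0.92, which was -0.30 without control replicate 1. Its summed signal was 603 to 756 on treated arrays, against 918 to 6172 on control arrays. Of 9 neuronal and glial genes 1 fell (Mbp, the myelin basic protein; median -0.65), of 2 erythroid genes Alas2, the haem synthesis enzyme of red cells, fell by 2.07 on the log2 scale (a call lost without control replicate 2 or treated replicate 2 or 3), and of 5 skeletal muscle genes (median -1.10) Actn3 rose by 2.34 while Myl1 and Acta1 fell (changes of -3.19 and -2.66).

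Of 21 hypoxia and glycolysis genes 5 rose and 7 fell (median -0.13), near the shares of all genes, of which 22.4% rose and 25% fell. Without treated replicate 2 there were 3 and 4, and without control replicate 3 there were 3 and 6. Hmox1, haem oxygenase, changed by 2.47 ± 0.27 and Slc2a1, a glucose transporter, by 1.63 ± 0.19, while Pdk1, a brake on pyruvate oxidation, changed by -1.95 ± 0.22 and Vegfa by -0.54 ± 0.20, a call lost without treated replicate 1 or 2 or control replicate 1 or 3. Immediate early and glucocorticoid genes rose in 10 of 19 and fell in 1 (median 0.75), led by Egr2 (2.73 ± 0.34), a transcription factor. Of 17 clock genes 3 rose and 5 fell (median -0.34), again near those shares of all genes. Per2, a repressor in the clock loop, had 149, 184 and 171 on treated arrays, against 32.7, 34.9 and 51.7 on control arrays, and Npas2, an activator in the loop, changed by -1.49 ± 0.40. Clock genes differed between the untreated DBA arrays of the 2 code series, where 4 were higher and 9 lower in the day 18 series, with a difference of -3.87 for Per2 and 3.87 for Npas2. With the DBA controls of both series pooled, the day 18 changes of Per2 and Npas2 were -0.35 and 0.44, so their direction depends on the choice of controls.

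The response at day 18 was then tested against that at day 3 in the same strain, as the difference between the responses, each over its own controls. Called differences numbered 544 genes, 4.18% of those tested, with 321 more positive at day 18 (2.47%) and 223 more negative (1.71%). An unadjusted p under 0.05 was reached by 2393 (18.4%). At the level of single responses, 1696 genes rose at both times, which is 58.1% of the day 18 increases and 79.6% of the day 3 increases. A further 1471 fell at both, 45.2% of the day 18 and 84.4% of the day 3 decreases, and 5 of the day 18 increases fell at day 3. Untreated DBA arrays of the 2 code series differed in 3854 genes (29.6%), 1817 higher (14%) and 2037 lower (15.6%) in the day 18 series, so responses, each over its own controls, were compared across series, and signals of different series set side by side carry such differences too. The ratio of the 3′ to the 5′ actin probe sets, a sign of RNA quality, averaged 1.19 ± 0.036 on treated and 1.29 ± 0.047 on control arrays of day 18, against 1.92 ± 0.087 and 2.44 ± 0.381 at day 3 (SD, n = 3 each), and its part in the differences was not tested. Xist was high on all 3 treated and all 3 control arrays of day 3, against 1 of 3 in each group of day 18. Kdm5d was at most 5 on treated and 25.4 on control arrays of day 3. By these transcripts the DBA groups mixed the sexes at day 18 but not at day 3. With an Xist term in the fit, 630 differences were called.

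Interferon-stimulated genes differed with time in nearly every member. Of the 31, 30 had a larger response at day 18, against 2.47% of all genes, and the list median was 2.86 at day 18 and 0.38 at day 3. At day 3, 13 of the 31 rose, against 16.4% of all genes. Irf7 changed by 4.18 at day 18 and 0.19 at day 3, a difference of 3.99 ± 0.62 (adjusted p = 0.00034). On the day 3 arrays Irf7 had 390.4, 582 and 377, against 322, 428 and 407 on their own controls, so its treated and control arrays overlapped in range at day 3. Usp18 changed by 4.10 and -0.04, a difference of 4.14 ± 0.42 (adjusted p = 1.32e-06), and Ifit1 by 4.28 and 0.38, a difference of 3.90 ± 0.43. Counts of called members ran from 28 to 30 of 31 when each array of the comparison was left out. Larger responses at day 18 were also called for Ifi204 (3.35 and 0.65), Cxcl10 (3.19 and 0.90) and Tlr7 (2.78 and 1.05), with differences of 2.70 ± 0.39, 2.29 ± 0.55 and 1.74 ± 0.36. The call of Cxcl10 was lost without treated replicate 3 or day 3 replicate 3.

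Of the 8 largest positive differences, Tdo2, Ms4a4c and Trim30d lay outside the interferon list (3.59 ± 0.70, 3.48 ± 0.50 and 3.73 ± 0.62), and Usp18, Irf7, Ifit1, Ifit3 and Oas3 lay in it. Gpnmb changed by 5.10 at day 18 and 2.00 at day 3, a difference of 3.09 ± 0.54 (adjusted p = 0.00111), and Tdo2, which degrades tryptophan, by 4.22 and 0.63. Il7r and Cd4 also had larger responses at day 18, by 2.64 ± 0.40 and 1.74 ± 0.43, the call of Cd4 being lost without treated replicate 2 or day 3 replicate 3. Of the mast cell list 3 of 9 were called, Tpsab1 (2.97 ± 0.64), Tpsb2 and Cma1 (2.16 ± 0.55), with 8 without treated replicate 1, 1 without treated replicate 2 or 3, and 0 in a fit on the arrays of the comparison alone. The neutrophil list (median 3.17 at day 18 and 2.55 at day 3), the acute cytokine list (3.02 and 2.36) and the proliferation list (1.69 and 1.85) were up at both times. S100a8 changed by 3.43 at day 18 and 5.43 at day 3, a difference of -2.01 ± 0.68 that did not pass (adjusted p = 0.0955).

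The largest negative differences were those of Sncg, Acta1, Pck1, Ntrk2, Npas2, Amy1, Orm1 and Dmrt2. Leaving out 1 array ended the call of Amy1 in 10 of 12 cases, of Orm1 in 8, of Npas2 in 3 and of Pck1 in 1. Sncg, the gamma-synuclein of white fat, changed by -3.57 at day 18 and -0.29 at day 3, a difference of -3.28 ± 0.65 (adjusted p = 0.00387). Pck1 changed by -2.92 and -0.10, a difference of -2.82 ± 0.69. Of the adipocyte list 16 fell at day 18 and 2 at day 3, with medians of -1.96 and -0.44, against 25% and 13.4% of all genes. In the test of the difference itself only Plin4 and Cd36 of its 18 genes passed, and 10 did without treated replicate 1, on which fat genes were least reduced. Lipid synthesis genes fell in 22 of 23 at day 18 and 14 at day 3 (medians -1.79 and -1.08), and respiratory chain genes in 30 and 24 of 30 (medians -0.73 and -0.61).

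Last, the day 18 response of DBA was tested against that of BALB/c, the strain in which pristane leads to plasmacytomas. Differences were called in 131 genes (1.01%), 73 more positive in DBA (0.561%) and 58 more negative (0.446%). The count was 6 in a fit on the arrays of the comparison alone and 1290 with array weights, and it ran from 41 to 366 when each array was left out, so the number of strain differences is poorly fixed by these data. Of genes that rose in DBA, 2167 also rose in BALB/c, 74.3% of the DBA and 76.6% of the BALB/c increases, and of those that fell 2125 also did, 65.2% and 73.5%. Pancreatic acinar markers differed between the strains' arrays, with a summed signal of up to 1850 on treated and 2734 on control DBA arrays, against up to 205090 on treated and 1406095 on control BALB/c arrays. Without BALB/c control replicate 2, which held the highest value, 272 genes were called. The actin ratio of that array was 2.285, against 1.293 to 1.335 on the other BALB/c controls and 1.116 to 1.217 on the treated BALB/c arrays.

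In the interferon-stimulated list 2 of 31 genes had a larger response in DBA, against 0.561% of all genes, and 0 a smaller one. The 2 were Xaf1, with most BALB/c signals under 103.7, and Stat2, whose call was lost under 3 alternatives. Ifi44l, an interferon-induced gene outside the list, had a difference in the other direction (-4.58). The interferon-stimulated list had medians of 2.86 in DBA and 2.38 in BALB/c, the neutrophil list 3.17 and 3.41, the acute cytokine list 3.02 and 2.67, the proliferation list 1.69 and 1.54, and the lipid synthesis list -1.79 and -1.17. Endoplasmic reticulum genes rose in 15 of 22 in DBA (median 0.71) and in 4 in BALB/c, where 3 fell (median -0.03), against 21.7% higher and 22.2% lower over all genes in BALB/c. In the test of the difference limma called 0 of these 22 genes (14 at an unadjusted p under 0.05, which 16.1% of all genes reached), so the lists' counts are given side by side only. The part of the pancreatic acinar signal on the BALB/c arrays in these counts was not tested. The intestinal list had medians of -0.92 in DBA and 1.86 in BALB/c.

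Several genes of the interferon and monocyte groups had larger responses in DBA. Xaf1, an interferon-induced gene linked to apoptosis, had 9293, 7398 and 9807 on treated and 2115, 1917 and 2020.0 on control DBA arrays, against 117, 84.5, 111 and 92.7 on treated and 59.1, 74.3, 70.7 and 49.8 on control BALB/c arrays. Its response was 2.11 in DBA and 0.51 in BALB/c, a difference of 1.59 ± 0.17 (adjusted p = 3.92e-06). Most BALB/c values of Xaf1 lay under 103.7, so the size of this difference depends on the offset. Over the alternatives with 1 value per gene it was between 1.04 and 1.72, with the call kept. Stat2 changed by 2.84 and 1.50 (difference 1.34 ± 0.27, adjusted p = 0.0139), a call lost without treated DBA replicate 3. That call was also lost with median centring (adjusted p = 0.0639) and in a fit on the arrays of the comparison alone (adjusted p = 0.148). Ifi204 changed by 3.35 and 1.81 (difference 1.54 ± 0.37, adjusted p = 0.0402), and this call was lost under 12 alternatives, among them leaving out treated DBA replicate 3, any DBA control, treated BALB/c replicate 2, 3 or 4, or BALB/c control replicate 3 (highest adjusted p = 0.241). Marco, a scavenger receptor of macrophages, had 4052, 207 and 938 on treated and 15.4, 61.9 and 62.3 on control DBA arrays, against 22.7, 5.2, 61.5 and 11.7 on treated and 4.7, 33.3, 4.8 and 6.1 on control BALB/c arrays. It was at least 207 on all 3 treated DBA arrays, though over 19 times brighter on replicate 1 than on replicate 2, and at most 61.5 on every BALB/c array of the comparison, a difference of 3.47 ± 0.78 (adjusted p = 0.0307) that was lost without treated DBA replicate 3, DBA control replicate 1 or 2, or BALB/c treated replicate 2 or 4. The call of Marco was also lost with log2(signal + 1), with the stricter filter and in a fit on the arrays of the comparison alone (adjusted p of 0.148, 0.0551 and 0.278).

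Other genes with a more positive response in DBA were Best1, a chloride channel (3.00 in DBA and -0.04 in BALB/c), Rarres1, a retinoid-induced membrane protein (1.94 and -0.90), Spon1, a secreted matrix protein (3.57 and 0.96), Tdo2 (4.22 and 1.58), Actn3 (2.34 and -0.04), Ccn3, a matricellular protein (1.14 and -1.09), and Kiz, a centrosomal protein (1.77 and -0.29). Best1 had 334, 616 and 420.2 on treated and 19.4, 55.2 and 31.5 on control DBA arrays, against 7.7, 10.1, 4.4 and 12.2 on treated and 7.0, 11.8, 10.9 and 8.6 on control BALB/c arrays. Best1 and Actn3 lay under 103.7 on every BALB/c array of the comparison, as Marco did, so no response could be read there and the size of these differences depends on the offset. The call of Tdo2 was lost under 15 alternatives (highest adjusted p = 0.287), among them leaving out treated DBA replicate 2 or 3, any DBA control, treated BALB/c replicate 1, 2 or 3, or BALB/c control replicate 3 or 4. With the mean over its probe sets the difference of Spon1 was 1.20 (adjusted p = 0.062). In Rarres1 the direction of the response was opposite in the strains, a difference of 2.84 ± 0.25 (adjusted p = 1.35e-07).

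The most negative difference was that of Ifi44l, an interferon-induced gene. It had 1.8, 2.5 and 3.3 on treated and 5.1, 2.5 and 12.5 on control DBA arrays, against 3921, 2484, 1988 and 2691 on treated and 192, 9.4, 241 and 119 on control BALB/c arrays. Its probe set was at the bottom of the scale on every DBA array, and the difference was -4.58 ± 0.63 (adjusted p = 0.000248). Cd22, a lectin of B cells, changed by -0.21 in DBA and 1.74 in BALB/c, and Lbp, the lipopolysaccharide-binding protein, by 0.21 and 2.06. Cox7a1, a muscle and fat subunit of cytochrome oxidase, Prg4, the joint lubricant, and Prune2 fell in DBA (changes of -1.53, -1.39 and -1.67), while their changes in BALB/c were 0.19, 0.32 and 0.07. Over the alternatives with 1 value per gene the difference of Prune2 was -2.07 to -0.54. The call of Prune2 was lost under 18 alternatives (highest adjusted p = 0.326), among them leaving out any treated BALB/c array, treated DBA replicate 2 or 3, DBA control replicate 2 or 3, or BALB/c control replicate 3 or 4. That of Cox7a1 was lost under 7, namely without treated DBA replicate 2 or 3, any DBA control, or treated BALB/c replicate 2 or 3 (highest adjusted p = 0.124), and that of Lbp without DBA control replicate 2. Slc13a4, a sulfate transporter, changed by -3.13 and -1.47, and Ddo, D-aspartate oxidase, by -2.03 and -0.39.

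**Figure D5:**
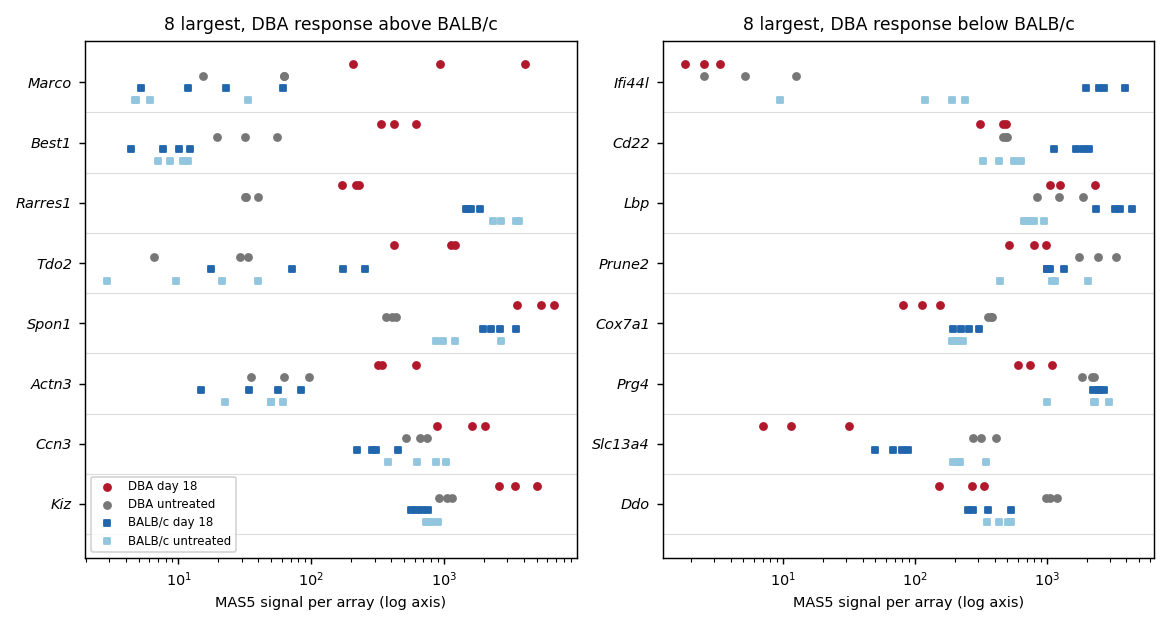
Signal of each array on a log axis for the 8 largest positive (left panel) and 8 largest negative (right panel) differences between the day 18 responses of DBA and BALB/c, with 3 treated and 3 untreated DBA arrays as circles and 4 treated and 4 untreated BALB/c arrays as squares. Ifi44l is at least 1988 on every treated BALB/c array and at most 3.3 on treated DBA arrays.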

How the data were processed

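The 32 arrays, 6 of them of the DBA day 18 response, are Affymetrix Mouse Genome 430 2.0 chips of mesentery RNA. Per the labels' protocols, TRIzol extracts were purified with an RNeasy kit, and 1 µg went into a MessageAmp II amplification. The deposited values are the intensity of each probe set on a linear scale, made with GCOS and MAS5 per the submitters' processing notes, whose versions were not stated there; each array has a 2% trimmed mean of 500, and 13 values are 0. The authors' test was ANOVA in Partek, per the series text. For arrays, their number limits the precision.

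Of 45101 probe sets, 34958 carried 1 symbol in the platform annotation, 932 several and 9211 none, and 0 symbols were updated through RefSeq. Probe sets above 103.7 (the median of all values) on at least 3 arrays were kept, and 13017 of 18194 genes were tested on log2(signal + 24.9), where the offset is the 25th percentile over all values, which shrinks the changes of weak signals. Limma 3.58.1 in R 4.3.3 fitted all 32 arrays with a level for each group in each code series and an intensity trend, two-sided, with Benjamini-Hochberg adjustment over all genes and a threshold of 0.05. The size of a response rests on its own arrays and its spread on all. Replicate numbers follow accession order. The labels do not say what the title codes stand for.

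Named genes are, among called genes whose groups did not overlap, the 15 with the largest increase and the 12 with the largest decrease, the 8 largest differences between responses in each direction, and members of 42 lists, in which 608 of 717 symbols were tested; predicted and clone names were skipped. The comparisons, the lists and their members were chosen with earlier results of these data known. Alternatives changed the offset, the filter, the scaling, the arrays fitted, the variance model, array weights, the code series, an Xist term, the probe set summary and each array in turn. In simulated data for the DBA day 18 response over 13017 genes, 64% of 100 genes changed by 1 log2 unit and 96% of 100 changed by 2 were recovered, and 5.33% of the calls were false. The simulation changed only these genes and drew independent noise with the same spread on every array. Its rates need not hold for the data, where 47.4% of genes were called and treated arrays differed in whole lists.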

Additional observations from a re-analysis of the deposited data

Results flagged for a closer look

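The response of DBA at day 18 differed from that at day 3 in 544 genes by a test of the difference itself, and the following named genes were among them, with the log2 difference, day 18 minus day 3. The interferon-stimulated genes were Usp18 (4.14), Irf7 (3.99), Ifit1 (3.90), Ifit3 (3.84) and Oas3 (3.54), and beside them stood Trim30d (3.73), a TRIM family gene, Ifi204 (2.70), Cxcl10 (2.29) and Tlr7 (1.74). Genes of myeloid and mast cells were Ms4a4c (3.48), Gpnmb (3.09), Ccl12 (2.46), Fcgr4 (2.45), Tpsab1 (2.97) and Cma1 (2.16). T cell genes were Il7r (2.64) and Cd4 (1.74), and Tdo2 stood at 3.59. More negative at day 18 were Sncg (-3.28), Acta1 (-3.10), Pck1 (-2.82), Ntrk2 (-2.47), Amy1 (-2.27), Orm1 (-2.17) and Dmrt2 (-2.11). The clock genes Npas2 (-2.36), Per2 (1.83) and Clock (-1.21) were also called, and their untreated levels differed between the code series.

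Against BALB/c at day 18, 131 genes differed in the same kind of test, given as DBA minus BALB/c. More positive in DBA were Marco (3.47), Best1 (3.04), Rarres1 (2.84), Tdo2 (2.64), Spon1 (2.61), Actn3 (2.38), Ccn3 (2.23), Kiz (2.06), Xaf1 (1.59), Ifi204 (1.54) and Stat2 (1.34). More negative were Ifi44l (-4.58), Cd22 (-1.94), Lbp (-1.84), Prune2 (-1.75), Cox7a1 (-1.72), Prg4 (-1.70), Slc13a4 (-1.67) and Ddo (-1.65).

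On the BALB/c control arrays, Marco was highest on replicate 2, whose gap to the next array was 0.932 of the group's range; chance flags about 1 in 20 groups of this size, and 38 groups were examined. All 4 values are under 103.7, where signals have no reliable order. Among 3841 probe sets that carried several gene symbols or none and passed the filter, 1109 were called in the DBA day 18 response, 624 higher and 485 lower.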

How the results depend on the processing

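The DBA day 18 response gave 5180 to 6051 called genes when each array was left out, and 9571 probe sets tested singly. Differences from DBA day 3 numbered 544, but 319 with median centring, 825 in a fit on the arrays of the comparison alone, 3049 with array weights, 4165 with all DBA controls pooled, and 247 to 906 when each array was left out (906 and 248 without treated replicates 1 and 3, 349 and 247 without day 3 replicates 2 and 3, and 346, 316 and 357 without DBA control replicates 2, 5 and 6). Differences from BALB/c numbered 131, but 228 with quantile normalization, 54 with median centring, 6 in a fit on the arrays of the comparison alone, 1290 with array weights, and 41 to 366 when each array was left out (366, 53 and 41 without treated DBA replicates 1 to 3, 58, 44 and 66 without DBA control replicates 1 to 3, 51 and 56 without treated BALB/c replicates 2 and 3, and 272 without BALB/c control replicate 2). Differences between the untreated DBA arrays of the 2 code series numbered 3854, with 2926 to 3258 when an array was left out and 7355 probe sets tested singly. The share of calls on the positive side was 72.7% with median centring, against 59%, for the difference from day 3, 44.4%, against 55.7%, for that from BALB/c, and 12.5%, against 47.1%, between untreated arrays, where centring moved the median of all genes to -0.24. With all DBA controls pooled the changes of Per2 and Npas2 turned to -0.35 and 0.44 and their differences from day 3 to -2.04 and 1.51, and with the mean over probe sets Cd8a turned to 0.38; the cause was not tested. Single genes were followed only under alternatives with 1 value per gene, which leaves out probe sets tested singly. Of 178 genes followed in the response, 142 kept their direction and call under all of these. So did 16 of 28 in the difference from day 3 and 4 of 19 in that from BALB/c. Calls of Prune2, Tdo2 and Ifi204 against BALB/c and of Ccl12, Amy1, Per2 and Orm1 against day 3 were lost most often. Pooling the controls of the code series gives no difference between them and was not run for it. Signals under 103.7 have no reliable order. No paired analysis was possible because the replicate numbers follow accession order and pair no arrays.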
